A study of Homo sapiens with 23 samples.

Results

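Acetylation of lysine 18 of histone H3 (H3K18ac) was compared between SW480 cells given propionate and untreated SW480 cells in 4 chromatin immunoprecipitation libraries of the 23 samples in the series. The samples were chosen by their labels, as the H3K18ac libraries of these 2 conditions, and no measured value entered the choice. SW480 is a widely used human cell line derived from a colorectal adenocarcinoma. Treated cells received sodium propionate (NaPr) at 10 mM for 12 to 16 h, and untreated cells received none. Each group had 2 replicate libraries, whose labels do not say whether they came from separate cultures, so that the tests below measure only the spread between these libraries. Each library is given as a list of regions in which fragments passed a threshold over input chromatin, together with a fold enrichment at the summit of each region. The 4 lists held 529972 of the 2187390 regions of the series.

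Acetyl groups on histone tails are placed by acetyltransferases such as EP300 and CREBBP and removed by histone deacetylases, and they neutralise the positive charge of lysine. H3K18ac sits mostly at active promoters and enhancers. Propionate is a short-chain fatty acid that gut bacteria release from fibre. It is known as a weak inhibitor of histone deacetylases and as a source of propionyl-CoA, from which lysines can be propionylated in place of being acetylated.

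The 4 libraries differed in size and depth within both groups. NaPr replicate 1 held 202787 regions and NaPr replicate 2 held 95194, against 76888 and 155103 in untreated replicates 1 and 2. The covered genome came to 89.8 and 46.0 Mb in NaPr and to 67.2 and 69.4 Mb in untreated cells. Fragment depth, solved from the fold and p-value of weak regions, was 38.6 and 24.1 fragments per kb of genome in NaPr and 11.2 and 28.3 in untreated cells. The shallowest library, untreated replicate 1, had the widest regions, with a median of 514 bp against 290 to 337 bp in the others. Likeness between lists was measured over the 20000 strongest regions as the Jaccard index, the shared bases over all bases covered by either list. Untreated replicates reached 0.562 with each other, while the NaPr replicates reached 0.333. NaPr replicate 1 was more like the untreated libraries of another mark, acetylated lysine 12 of histone H4 (H4K12ac), with indices of 0.551 and 0.535. It reached 0.490 and 0.521 with untreated H3K18ac. NaPr replicate 2 was most like the propionylated lysine 18 libraries (H3K18pr) of NaPr cells, with 0.394 and 0.408, and untreated H3K18ac replicate 2, with 0.396. Over the 76888 strongest regions the order turned, with 0.298 and 0.311 for untreated H3K18ac and 0.281 and 0.259 for H3K18pr. NaPr replicate 1 was less like NaPr replicate 2 than like the untreated libraries of both acetyl marks. Over the 20000 strongest regions NaPr replicate 2 was likewise less like NaPr replicate 1 (0.333) than like untreated H3K18ac (0.339 and 0.396). The counts of gained and lost genes and the fits are also given without NaPr replicate 1. The lncRNA counts, the strengths and overlaps of regions and the sequence content are given with all 4 libraries, and the sequence of gained genes was read at summits of NaPr replicate 1. All 4 lists and the untreated input carry the same run tag in their names, while the NaPr input carries another.

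SW480 cells are epithelial. Of 10 marker genes of colon epithelium, 6 had a region within 1 kb of the 5′ end in all 4 libraries (49.8% of all protein-coding genes did), and 1, VIL1, had one in both untreated libraries alone. KRT18 and KRT8, which share a region and encode keratins of simple epithelia, had folds of 10.7 and 12.7 in NaPr and 54.2 and 22.6 in untreated cells. CEACAM5 and ELF3 had none in any library. Among leukocyte markers, PTPRC, CD3E and LYZ had none in any library, and CD14 had a region in all 4. Of 5 hepatocyte markers, 4 had none in any library, and of 5 endothelial markers, 4 had none. Of 6 fibroblast markers, 1 (COL1A1) had a region in all 4 libraries, as had 2 of 5 neuronal markers (SYT1 and SNAP25).

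Around gene starts both groups showed the same outline, with NaPr replicate 2 lowest throughout. The share of 20033 protein-coding genes with a region within 1 kb of the 5′ end was 65.6% and 54.2% in NaPr and 64.3% and 68.0% in untreated cells. These shares averaged 59.9% ± 8.08 (SD, n = 2) and 66.1% ± 2.60 (SD, n = 2). The difference of -6.26 percentage points was within the spread of the NaPr libraries (two-sided exact permutation test, p = 0.667, where 4 libraries cannot give less than 0.333). NaPr replicate 1 lay between both untreated libraries, so that the lower mean came from NaPr replicate 2, and the difference was -0.55 points without NaPr replicate 2 and -12.0 points without NaPr replicate 1. Coverage dipped just upstream of the 5′ end in every library, to 21.5% and 14.4% of genes in NaPr and 37.7% and 28.3% in untreated cells at 50 or 100 bp. At the 5′ end 25.0% and 16.3% of genes were covered in NaPr and 42.2% and 34.1% in untreated cells, and the groups did not overlap there. The highest coverage, 200 to 300 bp downstream, was 46.6% and 31.6% in NaPr and 52.0% and 51.9% in untreated cells.

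**Figure D1:**
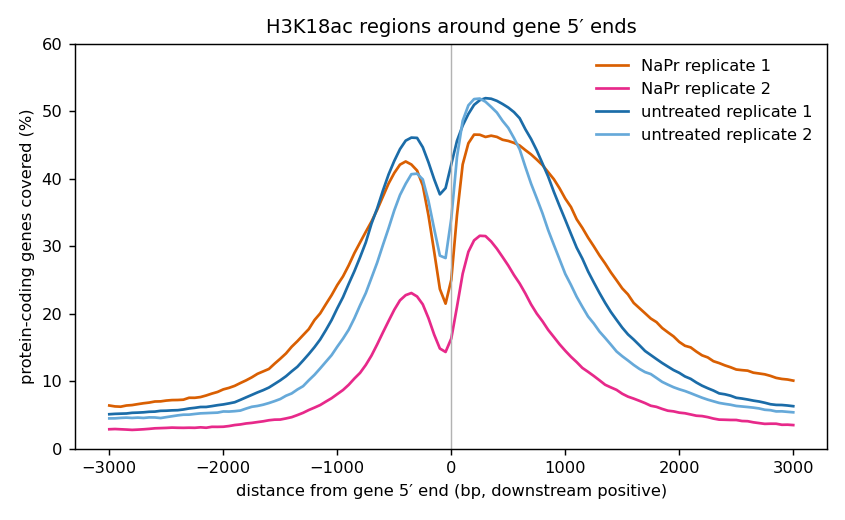
Percentage of 20033 protein-coding genes covered by an H3K18ac region (vertical axis) against distance from the gene 5′ end in bp (horizontal axis), 1 line for each library. NaPr replicate 2 peaks at 31.6%, below the 46.6% of NaPr replicate 1 and the 52.0% and 51.9% of the untreated libraries.

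Most genes kept the same state at their 5′ end. A region lay within 1 kb of the 5′ end in all 4 libraries for 9977 genes and in none for 5144. Genes were called gained where both NaPr libraries and neither untreated library had such a region, and lost in the reverse case. There were 83 gained genes (0.414% of those tested) and 261 lost genes (1.3%). Far more genes, 2054, were missing in NaPr replicate 2 only. Counts of this kind have no test, and they grow by construction when a library is left out. Without NaPr replicate 1 there were 361 gained (1.8%) and 2315 lost genes (11.6%), and 2054 of those 2315 had a region in NaPr replicate 1. Without NaPr replicate 2 the order turned, with 567 gained and 419 lost genes. It was 147 and 957 without untreated replicate 1, and 193 and 441 without untreated replicate 2. The order turned as well, to 481 gained and 292 lost, when regions over a peak of any input list were left out. Among 18866 lncRNA genes, 128 were gained (0.678%) and 205 lost (1.09%).

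**Figure D2:**
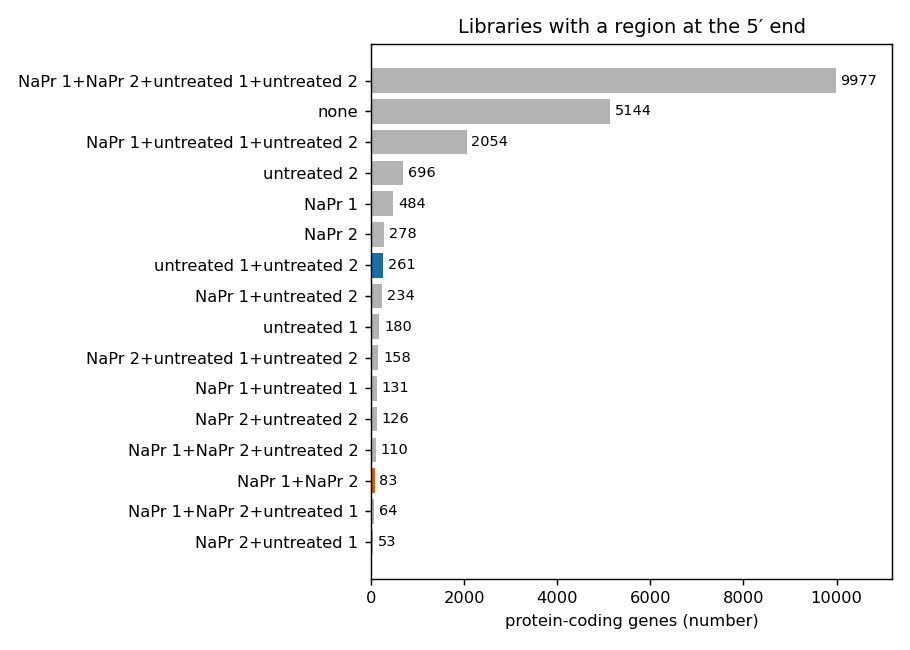
Number of protein-coding genes (horizontal axis) for each combination of libraries with a region within 1 kb of the 5′ end (vertical axis). The 83 gained genes are in orange and the 261 lost genes in blue, beside 9977 genes with a region in all 4 libraries and 2054 in which NaPr replicate 2 alone had none.

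Gained and lost regions were weak next to those shared by all libraries. Gained genes had median folds of 2.53 and 2.59 in the NaPr libraries, and none reached a fold of 4 in both. Lost genes had median folds of 3.70 and 2.82 in untreated replicates 1 and 2, and 23 reached 4 in both. Genes with a region in all 4 libraries had median folds of 4.98 and 3.21 in NaPr and 12.8 and 7.72 in untreated cells. Deposited folds were thus lower in NaPr at shared genes, so that a fold of 4 is not the same bar for gained and lost genes. In 179 of the 261 lost genes (68.6%) the strongest regions of both untreated libraries overlapped each other. The same held for 46 of the 83 gained genes (55.4%) in the NaPr libraries, so that for the rest the replicates marked different places near the same 5′ end. In 26 lost genes (9.96%) and 7 gained genes (8.43%) the region met a region of the other group that ended outside the 1 kb window.

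The DNA under these regions differed in its content of CpG, the dinucleotide that is dense in the promoters of widely used genes. In 200 bp around the summit, gained genes had a median of 4 CpG and a GC content of 54.5%, read at the summits of NaPr replicate 1. Genes with a region in all 4 libraries had 13 CpG and 62.5% GC at the summits of the same library. Lost genes had 9 CpG and 62.0% GC at the summits of untreated replicate 1, against 14 CpG and 64.0% for the shared genes. In the stretch from 250 bp before to 50 bp after the 5′ end, the median was 6 CpG for gained, 16 for lost, 25 for shared and 18 for all genes, and 8 for genes that were neither gained, lost nor shared. The GC box (GGGCGG, either strand), a site of SP and KLF factors, was found in this stretch in 32.5% of gained, 55.6% of lost, 68.3% of shared and 52.4% of all genes, and in 36.2% of genes that were neither gained, lost nor shared. The AP-1 motif (TGACTCA, either strand) was found in 3.61%, 4.6%, 3.33% and 3.98%. In the 200 bp around summits it was found in 4.82% of gained and 1.34% of shared genes at NaPr replicate 1 summits, and in 0.766% of lost and 1.20% of shared genes at those of untreated replicate 1. The ETS motif (CCGGAAG, either strand) was found in none of the gained genes in the stretch around the 5′ end. It was found there in 5.75% of lost, 18.2% of shared and 11.9% of all genes, and in 5.66% of those neither gained, lost nor shared. Around summits of NaPr replicate 1 it was in 3.61% of gained and 4.27% of shared genes. Around those of untreated replicate 1 it was in 3.83% of lost and 4.56% of shared genes.

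The windows below show this range in named genes whose summit lies outside every annotated exon. They are 200 bp of hg38, plus strand, centred on the summit, with each CpG in capitals. The first 3 are of lost genes, at summits of untreated replicate 1, and the other 4 are of gained genes, at summits of NaPr replicate 1.
MYO5B, chr18:50194412-50194611: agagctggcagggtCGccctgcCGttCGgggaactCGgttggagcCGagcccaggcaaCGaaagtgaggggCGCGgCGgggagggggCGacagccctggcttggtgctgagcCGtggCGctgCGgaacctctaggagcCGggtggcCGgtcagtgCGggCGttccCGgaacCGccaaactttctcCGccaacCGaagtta
NPTXR, chr22:38844306-38844505: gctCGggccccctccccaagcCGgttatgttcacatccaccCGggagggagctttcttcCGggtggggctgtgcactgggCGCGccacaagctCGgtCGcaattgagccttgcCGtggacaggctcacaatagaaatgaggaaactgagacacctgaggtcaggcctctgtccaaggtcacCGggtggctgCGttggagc
DUSP9, chrX:153641486-153641685: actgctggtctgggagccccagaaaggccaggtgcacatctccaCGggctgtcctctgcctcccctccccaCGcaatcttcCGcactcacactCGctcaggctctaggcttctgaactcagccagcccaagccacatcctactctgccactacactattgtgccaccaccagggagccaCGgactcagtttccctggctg
PRR5, chr22:44667779-44667978: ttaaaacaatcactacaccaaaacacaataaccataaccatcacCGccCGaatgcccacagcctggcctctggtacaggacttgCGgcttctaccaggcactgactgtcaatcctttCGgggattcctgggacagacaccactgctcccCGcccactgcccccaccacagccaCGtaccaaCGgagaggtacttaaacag
AS3MT, chr10:102869098-102869297: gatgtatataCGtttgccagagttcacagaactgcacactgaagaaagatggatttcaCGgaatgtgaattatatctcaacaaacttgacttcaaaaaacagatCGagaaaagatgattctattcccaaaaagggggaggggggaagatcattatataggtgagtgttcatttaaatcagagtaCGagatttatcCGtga
LAMP5, chr20:9514054-9514253: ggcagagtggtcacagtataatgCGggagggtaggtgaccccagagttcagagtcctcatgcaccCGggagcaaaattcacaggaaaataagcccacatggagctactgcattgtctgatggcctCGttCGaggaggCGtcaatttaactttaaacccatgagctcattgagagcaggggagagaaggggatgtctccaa
SEMA3G, chr3:52445257-52445456: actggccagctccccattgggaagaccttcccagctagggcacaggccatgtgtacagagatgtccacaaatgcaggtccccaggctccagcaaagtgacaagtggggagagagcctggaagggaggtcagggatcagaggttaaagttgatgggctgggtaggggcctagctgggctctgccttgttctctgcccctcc
The MYO5B window held 21 CpG, NPTXR 11 and DUSP9 5. Those of the gained genes held 7 in PRR5, 5 in AS3MT, 5 in LAMP5 and 0 in SEMA3G. The MYO5B summit lies 652 bp inside the gene, in an intron, and the other 6 lie upstream, from 204 bp in LAMP5 to 906 bp in DUSP9.

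The strongest gained genes, ranked by the lower of both NaPr folds and without regions over input peaks reached folds of up to 4.33. TMIGD3, a membrane protein with an immunoglobulin domain, led with folds of 3.77 and 3.51 in NaPr replicates 1 and 2 and no region in either untreated library. PRR5, a subunit of the mTORC2 kinase complex, had folds of 3.18 and 3.51, with the nearest untreated regions 7805 and 1376 bp away. MLPH, a Rab27 effector in melanosome transport, had 3.10 and 3.01, but its region met untreated regions beginning 1153 and 1179 bp from the 5′ end. AS3MT, the arsenite methyltransferase, had 3.78 and 3.00, with the nearest untreated regions 12957 and 12168 bp away. CTSS, the lysosomal protease cathepsin S, had 2.75 and 2.77, with none closer than 109717 bp in the untreated lists. Its NaPr regions, at chr1:150765516-150766042 and chr1:150765082-150765388, did not overlap each other. In AS3MT, IGSF23 and BANP too the regions of both NaPr replicates lay at different places. SEMA3G, a secreted semaphorin, had 2.84 and 2.93, with untreated regions 1621 and 1115 bp away, and SCGB1A1, a secretory protein of airway club cells, had 3.4 and 2.79, with untreated regions 6648 and 1995 bp away. BANP, a nuclear matrix-binding protein, had 4.33 and 2.69, and its NaPr replicate 1 region met untreated regions beginning 1120 and 1213 bp away. Its summit in NaPr replicate 1 was 1561 bp inside the gene. IGSF23 had 2.89 and 2.78 and LAMP5, of the lysosomal membrane protein family, 2.68 and 3.17, with untreated regions 5412 and 1541 bp from LAMP5. With a window of 2 kb, MLPH, SEMA3G and BANP had a region in as many untreated as NaPr libraries, and PRR5, SCGB1A1 and LAMP5 had one in 1 untreated library. In all 10 genes both untreated libraries were without a region in the window.

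Lost genes reached higher deposited folds, but these were read in the untreated libraries. At genes with a region in all 4 libraries folds were also higher there, with medians of 12.8 and 7.72 against 4.98 and 3.21 in NaPr. PARP8, of the ADP-ribosyltransferase family, had folds of 29.4 and 16.0 in the untreated libraries and no region in the window in NaPr. Its untreated regions, at chr5:50666766-50668966 and chr5:50666694-50668674, had their summits 1714 and 1734 bp inside the gene, and NaPr regions began 1124 and 1504 bp from the 5′ end and met them, so that its call turned on the edge of the window. MYO5B, a myosin motor of recycling endosomes in enterocytes, had 7.80 and 6.90, and a NaPr replicate 1 region began 1321 bp from the 5′ end and NaPr replicate 2 had none closer than 44026 bp. DUSP9, a MAP kinase phosphatase, had 4.53 and 4.86, with the nearest NaPr regions 3652 and 1141 bp away. Its untreated regions did not overlap each other, with summits 906 bp upstream and 1521 bp inside the gene. For 3 of the 10 leading regions, PARP8, MYO5B and DUSP9, the untreated region met a NaPr region outside the window.

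The other leading losses had no NaPr region over the untreated one. HMGN3, a nucleosome-binding protein, had folds of 7.44 and 4.69, at chr6:79233572-79234979 and chr6:79233550-79234692, which span its 5′ end. The nearest NaPr regions were 12868 and 42619 bp away. SOX8, a transcription factor, and LMF1, a lipase maturation factor, share a region with folds of 8.55 and 4.55. NaPr regions were no closer than 7427 and 8737 bp to SOX8. EHD2, an ATPase of caveolae, had 4.91 and 5.48, and NPTXR, the neuronal pentraxin receptor, had 4.53 and 5.02. INAFM2 had 6.25 and 5.61, C1orf159 5.41 and 5.47, and ENSG00000254536 10.6 and 5.34. C1orf159 and ENSG00000254536 had NaPr replicate 1 regions just outside the window, 1006 and 1052 bp away.

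**Figure D3:**
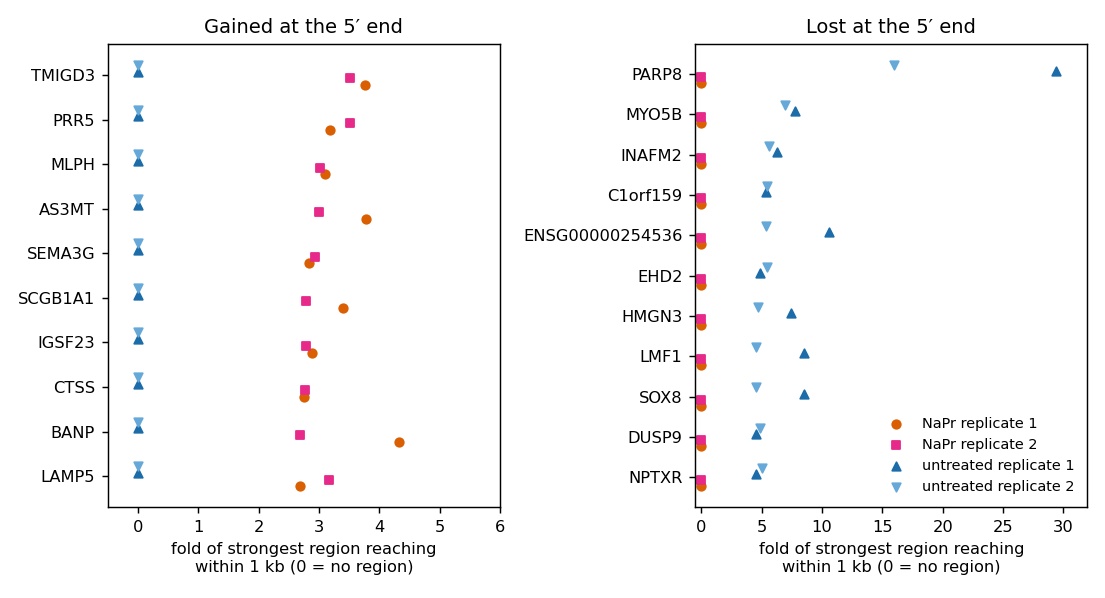
Fold enrichment of the strongest region reaching within 1 kb of the 5′ end (horizontal axis, 0 where a library had no region), whose summit may lie farther away, for the leading gained genes (left) and lost genes (right), with 1 point for each library. Gained genes stay between 2.68 and 4.33 in NaPr, while PARP8 reaches 29.4 in untreated replicate 1. Deposited folds were lower in NaPr than in untreated libraries at shared genes too.

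Other marks of the same cells were read at these genes. H3K18pr was present in both of its NaPr libraries at 34 of 261 lost genes (13%) and 5 of 83 gained genes (6.02%), against 42.0% of all genes and 74.5% of genes with H3K18ac in all 4 libraries. The H3K18pr lists have another run tag than the H3K18ac lists, so that the mark and the run cannot be told apart. MLPH was among the gained genes with H3K18pr in both libraries, with folds of 4.97 and 8.45, as was IGSF23, with 7.10 and 5.95. MYO5B and DUSP9 were among the lost genes with it, with 5.32 and 4.58 in MYO5B and 4.11 and 3.21 in DUSP9.

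H4K12ac, whose 4 lists carry the same run tag, had lower shares in both NaPr libraries. Its share of genes with a region within 1 kb of the 5′ end averaged 29.6% ± 4.82 (SD, n = 2) in NaPr and 63.5% ± 0.116 (SD, n = 2) in untreated cells, a difference of -33.8 points (two-sided exact permutation test, p = 0.333, the smallest it can give). By the rule used for H3K18ac, 60 genes were gained (0.3%) and 4830 lost (24.1%) in H4K12ac. Of the 261 genes that lost H3K18ac, 45 also lost H4K12ac (17.2%), and none of the 261 gained it. Of the 83 genes that gained H3K18ac, 8 lost H4K12ac (9.64%) and none gained it. Only genes with H4K12ac in both untreated libraries could lose it. These were 58 of the 261 lost genes, 18 of the 83 gained genes and 11903 of all genes. The shares of 17.2%, 9.64% and 24.1% are of all genes in each class, with or without the mark. Whether the marks differ in their response to NaPr was not tested.

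Within genes, more bodies were lost than gained. Gene body coverage is the percentage of a gene's length under regions, and a gene was called gained or lost when the lowest library of one group exceeded the highest of the other by at least 10 percentage points. There were 10 gained genes (0.0499%) and 201 lost genes (1.0%). Leaving out NaPr replicate 1 gave 67 and 1678, and leaving out NaPr replicate 2 turned the order, to 2236 and 277. It was 42 and 480 without untreated replicate 1 and 30 and 619 without untreated replicate 2. Genes called in either direction were short, with a median length of 4.69 kb for lost and 1.77 kb for gained genes against 27.5 kb for all genes, and 39 lost and 0 gained genes were 10 kb or longer. Limma on log2(coverage + 1) over 15005 genes called 0 genes higher and 0 lower (0.0% each, smallest adjusted p = 0.831), with 250 genes at an unadjusted p under 0.05, 35 higher and 215 lower. With quantile normalization these were 358 and 494.

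The 10 gained bodies included those of DDIT3, CKS2, ADM and CITED2. DDIT3, which encodes the CHOP factor of the unfolded protein response, was covered over 78.3% and 94.8% of its length in NaPr and 65.3% and 58.5% in untreated cells. CKS2, a subunit that binds cyclin-dependent kinases, was covered over 48.8% and 64.5% against 33.1% and 24.9%. ADM, the vasodilator peptide adrenomedullin, had 72.4% and 68.3% against 54.4% and 51.5%. CITED2, a partner of EP300 and CREBBP, had 65.0% and 66.2% against 51.4% and 52.0%. In none of these 4 were both NaPr folds at the 5′ end above the untreated ones. DDIT3 had folds of 5.72 and 15.3 in NaPr and 32.7 and 12.6 in untreated cells. These 4 were chosen from the 10 after their values were seen.

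Among longer genes, the widest losses were in AQP1, LFNG, TTYH1, NKPD1, SCNN1D and SECTM1. AQP1, a water channel, was covered over 17.4% and 19.0% in NaPr and 44.9% and 42.4% in untreated cells. LFNG, a glycosyltransferase that modifies Notch, had 21.4% and 24.1% against 55.7% and 45.8%. SCNN1D, the delta subunit of the epithelial sodium channel family, had 5.45% and 2.05% against 24.6% and 39.9%. TTYH1, of a chloride channel family, had 25.9% and 12.8% against 45.2% and 45.4%. NKPD1 and SECTM1 reached 31.4% and 38.2% at most in NaPr and 50.8% and 55.0% at least in untreated cells. No gene of 10 kb or longer passed the 10 points in the other direction. The nearest were TTPAL, with 16.1% and 14.1% in NaPr against 6.59% and 6.78%, GABARAPL1, an autophagy protein of the ATG8 family, with 26.7% and 26.5% against 20.3% and 17.1%, and PLAUR, the urokinase receptor, with 19.4% and 14.2% against 8.10% and 7.57%. TMIGD2, ARF4 and SLC5A3 had gaps of 6.05, 6.03 and 5.69 points. None of these 12 genes passed limma (adjusted p = 1.0 for each).

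**Figure D4:**
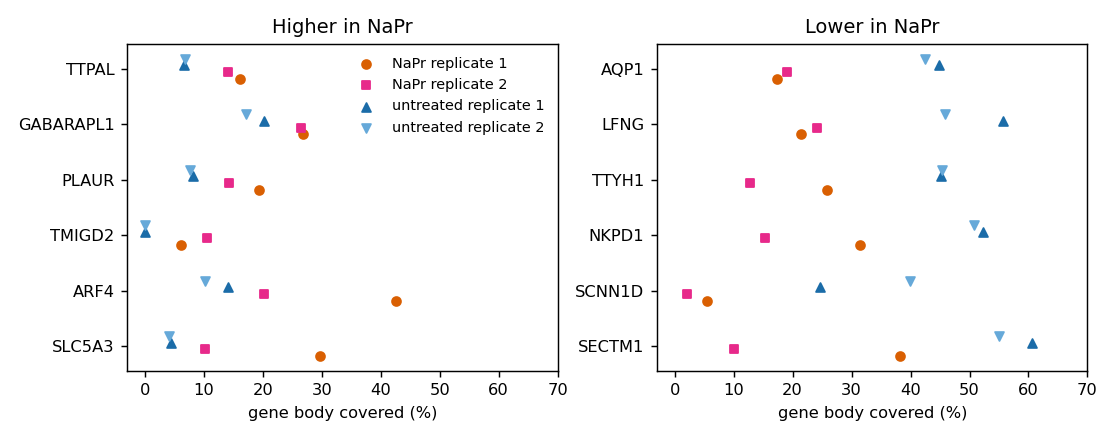
Percentage of the gene body covered by H3K18ac regions (horizontal axis) in the 6 genes of at least 10 kb with the widest gap in each direction, with 1 point for each library. AQP1 has 17.4% and 19.0% in NaPr and 44.9% and 42.4% in untreated cells, and the genes on the left all have gaps under 10 points.

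At the 9977 genes with a region in all 4 libraries, the fold of the strongest region reaching the window was compared after quantile normalization, since the folds of a list scale with its background. Limma called 0 genes higher and 0 lower (0.0% each, smallest adjusted p = 0.608), with 812 genes at an unadjusted p under 0.05, 410 higher and 402 lower. Median centring in place of quantile normalization shifted the median of all genes to 0.07 (log2) and gave 935 higher and 381 lower at that p, with 0 adjusted calls. The smallest p among lower genes was that of TNFAIP2, a gene induced by tumour necrosis factor, with deposited folds of 2.38 and 2.21 in NaPr and 35.4 and 15.4 in untreated cells. These values are of different places, since the untreated summits lay 2189 and 2148 bp inside the gene and the NaPr summits 1079 and 89 bp. Its normalized difference was -2.28 ± 0.36 (log2, SE, adjusted p = 0.608 by limma). IER5L, an immediate early response gene, had 2.56 and 2.64, at summits 401 and 493 bp upstream, against 39.0 and 16.1, at summits 3734 and 3698 bp inside the gene. Its body was covered over 46.9% and 42.3% in NaPr against 83.8% and 84.6%. LZTS2 had 4.86 and 2.73 against 35.0 and 27.1, and CFAP97D1 3.71 and 2.75 against 30.4 and 25.1. VMAC had 3.34 and 2.44 against 25.5 and 15.2, and shares this region with ENSG00000267314. In LZTS2, CFAP97D1 and VMAC too the untreated summits lay outside the 1 kb window, so that none of these differences is a change of fold at 1 place.

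The 6 leading genes on the higher side begin with ARID5B. ARID5B, a DNA-binding cofactor of a histone demethylase, had folds of 6.51 and 8.73 in NaPr and 3.69 and 3.05 in untreated cells. Both NaPr folds were above both untreated ones, with all 4 summits between 299 and 319 bp upstream, and its normalized difference was 2.07 ± 0.36 (log2, SE, adjusted p = 0.608 by limma). TMEM139 had 6.02 and 3.04 against 3.56 and 2.76, and ADAMTSL4, a secreted matrix protein, had 5.13 and 2.75 against 3.32 and 2.22. FKBP1A, the target of FK506, had 4.71 and 4.25 against 4.91 and 2.28 and shares this region with ENSG00000274322. ALG5, of the N-glycosylation pathway, had 11.9 and 11.3 against 12.2 and 9.18. The groups overlapped in the deposited folds of TMEM139, ADAMTSL4, FKBP1A and ALG5. Without NaPr replicate 1, limma called 220 genes higher (2.17%) and 206 lower (2.03%) of 10135, and ARID5B was among the higher (2.61 on the log2 scale, adjusted p = 0.00559). TNFAIP2 was among the lower there (-2.24, adjusted p = 0.0247) and also without NaPr replicate 2 (-2.60, adjusted p = 0.0392), where 1 gene was called higher and 4 lower. In these fits the lone NaPr library was assumed to vary like the untreated ones.

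Few genes of the pathway lists were gained or lost. The 16 lists hold 439 genes, of which 0 were gained and 6 lost at the 5′ end (1.37%, against 1.3% of all genes), in 3 lists. Of 37 genes of intestinal differentiation, 4 were lost (10.8%). HNF4G, a nuclear receptor of enterocytes, had untreated folds of 3.02 and 3.45. SPDEF, a goblet cell transcription factor, had 2.50 and 2.82. VIL1, the actin bundler of microvilli, had 3.50 and 3.66, and ANPEP, a brush border peptidase, had 3.52 and 2.67. The nearest NaPr regions were 615965 and 806978 bp from the 5′ end of HNF4G, 4019 and 3948 bp from SPDEF, 8824 and 11560 bp from VIL1 and 5463 and 26991 bp from ANPEP. Members with a region numbered 10 and 12 in NaPr and 15 and 16 in untreated cells, so that the groups did not overlap. Of all genes, 13137 and 10849 had one in NaPr and 12878 and 13616 in untreated cells. The list was chosen with earlier results of these data known, and the difference was not tested. Only 5 members had a region in all 4 libraries. Among them were CDX2, the intestinal homeobox factor, with folds of 2.70 and 2.50 in NaPr and 13.5 and 7.97 in untreated cells, and HES1, the Notch target, with 7.92 and 13 against 41.5 and 21.5. Deposited folds were lower in NaPr in general at genes with a region in all 4 libraries. Without NaPr replicate 1, 5 of the 37 were lost, the fifth being HNF4A, beside 11.6% of all genes, and 2 were gained.

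The other losses in lists were DSC2 and CDK4. DSC2, a desmosomal cadherin of the adhesion list of 40 genes, had folds of 3.52 and 4.08 in the untreated libraries, and no NaPr region lay closer than 394820 bp. CDK4, the G1 kinase of the cell cycle list of 28 genes, had 4.34 and 2.08, with NaPr regions 1149 and 1143 bp away, just outside the window. In their bodies, CDKN2D, an inhibitor of CDK4, was covered over 26.7% and 15.5% in NaPr and 50.5% and 52.4% in untreated cells. GADD45B, a stress gene, had 28.8% and 58.4% against 82.8% and 73.7%. ID3, a target of TGF-beta signalling, had 52.1% and 0% against 97.3% and 73.2%. With DDIT3 these were the genes of the 16 lists that were gained or lost in the body, 1 gained and 3 lost of 439. Of all 20033 protein-coding genes, 10 were gained (0.0499%) and 201 lost (1.0%) in the body. Bodies called in either direction were short, and the lists were not set against genes of like length.

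Writers and erasers of acetylation were mostly marked in every library. Of 23 acetyltransferases and acetyl readers, 19 had a region at the 5′ end in all 4 libraries, and 0 were gained or lost. EP300 had folds of 18.6 and 18.6 in NaPr and 27.9 and 31.2 in untreated cells, and BRD2, a bromodomain reader, had 10.9 and 16.8 against 76.3 and 35.2. Of 24 deacetylase genes, 19 had a region in all 4, and 0 were gained or lost. HDAC1 had 3.24 and 2.32 against 12.1 and 8.24, and HDAC2 had no region within 1 kb of its 5′ end in any library. The lower deposited folds in NaPr were general, as the medians of 4.98 and 3.21 against 12.8 and 7.72 over all such genes show. The median normalized difference of the 19 deacetylase genes was -0.39 (log2), with 14 below 0 and 5 above, beside -0.0056 over all 9977. Among the 16 lists this median ran from -0.83 in 5 intestinal differentiation genes to 0.25 in 37 ribosomal protein genes. It was -0.31 in 16 KLF and SP genes, with 13 below 0 and 3 above. Differences between lists were not tested.

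Genes that handle propionate itself were marked in part. Of 26 genes of short-chain acyl-CoA metabolism, 15 had a region in all 4 libraries (57.7%, against 49.8% of all genes) and 0 were gained or lost. PCCA, a subunit of propionyl-CoA carboxylase, had folds of 2.97 and 2.75 in NaPr and 5.84 and 4.54 in untreated cells, and MMUT, the methylmalonyl-CoA mutase, had 3.83 and 2.38 against 11.1 and 7.24. Without NaPr replicate 1, 7 of the 26 were lost, against 11.6% of all genes. ACSS1, the mitochondrial acetyl-CoA synthetase, was one, with 4.71 in NaPr replicate 1, none in NaPr replicate 2 and 19.2 and 10.4 in untreated cells. ACSS2, ACLY and HADH were others. Of 14 transporters and receptors, 5 had a region in all 4 libraries and 6 in none. SLC16A1, a monocarboxylate carrier, had 6.07 and 2.80 against 19.2 and 9.97, while SLC5A8, FFAR3 and HCAR2 had no region in any library. FFAR2, a propionate receptor, had 1 in untreated replicate 1 alone, with a fold of 2.1.

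AP-1 and Wnt genes were mostly marked in every library too. Of 18 AP-1 genes, 17 had a region in all 4 libraries. FOS had folds of 23.9 and 46.2 in NaPr and 40.4 and 56.1 in untreated cells, and FOSL1 had 11.2 and 37.4 against 75.5 and 39.2. JUN had 8.15 and 12.1 against 50.3 and 28.9. The AP-1 genes were among the most broadly covered, with median body coverage of 27.5% and 25.0% in NaPr and 31.9% and 30.4% in untreated cells. Over all genes it was 5.40% and 1.67% in NaPr and 3.02% and 3.53% in untreated cells. Coverage is a share of gene length, and the AP-1 genes were not set against others of like length. Of 31 Wnt and beta-catenin genes, 23 had a region in all 4. AXIN2, a Wnt target, was covered over 80.5% and 30.0% in NaPr and 72.0% and 50.6% in untreated cells, and the groups overlapped. Of 20 KLF and SP genes 16 had a region in all 4, and of 30 TGF-beta and SMAD genes 22 did. None of these 4 lists had a gene gained or lost at the 5′ end.

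Housekeeping lists had high shares in every library. Of 39 cytosolic ribosomal protein genes, 37 had a region at the 5′ end in all 4 libraries, and of 38 proteasome genes 35 did. Of 22 glycolysis genes 19 did, of 26 unfolded protein response genes 21 and of 24 cholesterol synthesis genes 18. Ribosomal protein genes showed how far the NaPr libraries differed within bodies, with median coverage of 42.1% in NaPr replicate 1 and 11% in NaPr replicate 2, on either side of 24.2% and 20.7% in untreated cells. Without NaPr replicate 1, 5 of 24 cholesterol synthesis genes and 0 of 39 ribosomal protein genes were lost at the 5′ end, beside 11.6% of all genes.

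**Figure D5:**
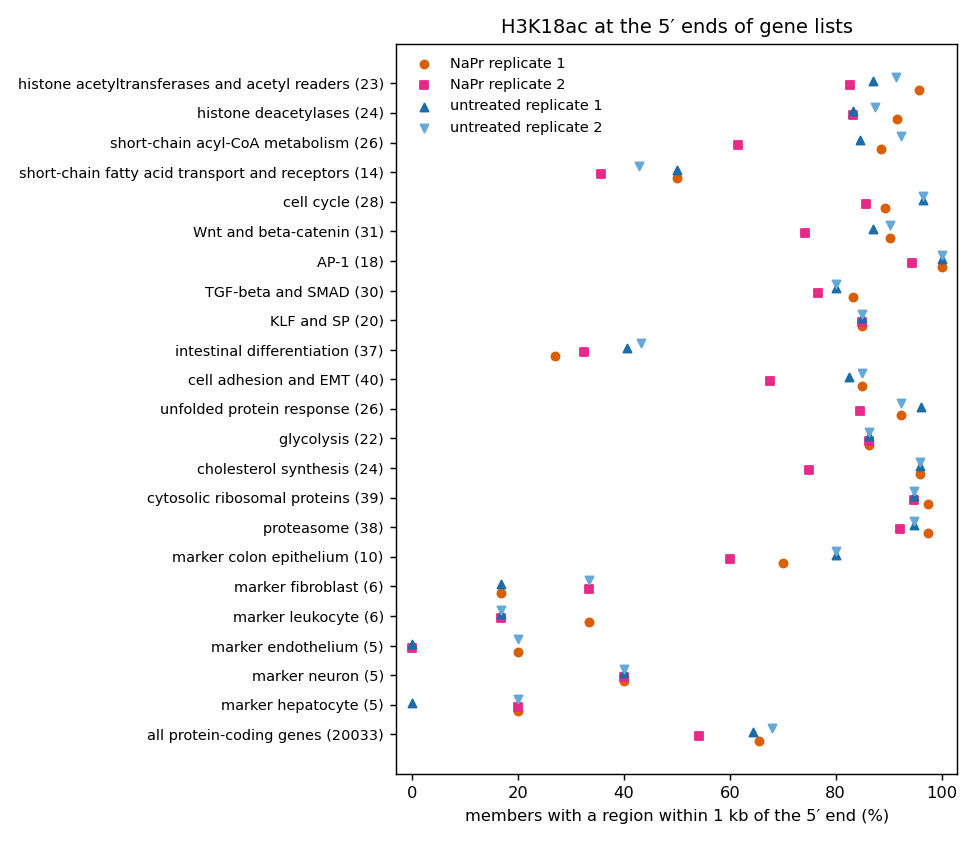
Percentage of the members of each gene list (number of genes in brackets) with an H3K18ac region within 1 kb of the 5′ end (horizontal axis), with 1 point for each library. Intestinal differentiation has 10 and 12 of 37 members in NaPr and 15 and 16 in untreated cells, while the lists of ribosomal protein and proteasome genes keep nearly all members in every library. The lists were chosen with earlier results of these data known.

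With NaPr replicate 2 alone against the untreated libraries, the leading lost genes had higher untreated folds. By construction, genes with a region in NaPr replicate 1 could be called lost here. By the same ranking, chosen for this comparison after values were seen, UFC1, an enzyme of ufmylation, led with untreated folds of 25.4 and 19.5 and no region in NaPr replicate 2, while NaPr replicate 1 had 12.9. H3-3A, which encodes the histone variant H3.3, had 20.6 and 16.7, with 7.66 in NaPr replicate 1. PARP8 came next, with 29.4 and 16.0, and its call turned on the edge of the window. EPOR, the erythropoietin receptor, had 26.7 and 15.3, with 2.29 in NaPr replicate 1. For UFC1, H3-3A and EPOR the distance to the nearest NaPr replicate 2 region outside the window is not given here. Of the 2315 genes lost in this comparison, 88.7% had a region in NaPr replicate 1. H4K12ac was in both untreated libraries at 78.1% and H3K18pr in both NaPr libraries at 30.8%. Over all genes these shares were 65.6%, 59.4% and 42.0%. The lost genes were chosen for a region in both untreated libraries and all genes were not, so that these are not like sets. Genes with a region in all 4 libraries had H4K12ac in both untreated libraries at 96.2% and H3K18pr in both NaPr libraries at 74.5%. Among gained genes ZNF556, a zinc finger gene, had a fold of 8.08 in NaPr replicate 2 and PARP16, an ADP-ribosyltransferase of the endoplasmic reticulum, 4.83. Their H3K18pr folds were 8.20 in 1 of 2 libraries for ZNF556, and 4.84 and 2.82 for PARP16.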

How the data were processed

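The 4 H3K18ac libraries, and for comparison the other libraries of the series, were used as the region lists that the authors deposited. Per the labels and methods, reads were trimmed with cutadapt 1.8.1, aligned to GRCh38.p13 with Bowtie2 2.3.1 and called against input with MACS2 2.1.0 at a p-value of 0.01 in each library separately, and blacklisted regions were removed. The deposited fold is the ratio of pileup to local background at the summit. The deposited −log10 p-values and q-values were used to rank and filter regions and to solve depth, for which all pileups (100%) came within 0.1 of a whole number. Folds and numbers of regions depend on depth and input. Which input served as control for the NaPr lists is not given in the sources used here. Reads were not analysed here.

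Regions on chromosomes 1 to 22, X and Y were used, and 529972 of 529972 lay inside the hg38 chromosomes. Genes were those of GENCODE 44, with the 5′ end of the gene as its start (sequence from the hg38 reference), and 1 shared base counted as overlap. Groups came from the sample labels. Gained and lost genes were counted with no test. Limma 3.58.1 (R 4.3.3, two-sided, Benjamini-Hochberg, adjusted p under 0.05, variance trend) was fitted without a block on log2(body coverage + 1) for genes with a mean coverage of at least 1%, and on log2 fold at genes with a region in all 4 libraries after quantile normalization. For shares, all 6 arrangements of the 4 libraries were enumerated in an exact two-sided permutation test. Scripts were tested on simulated data.

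Named genes were the 10 leading regions gained and lost at 5′ ends, not over input peaks and ranked by the lower of both folds, 6 genes of at least 10 kb by body gap, 6 by limma p in each direction, and members of 16 pathway lists and 6 marker lists that changed or stand first. The members and lists were chosen with earlier results of these data known. Alternatives were each library left out, q under 0.05, equal numbers of regions, other windows and gaps, regions over input peaks left out, another pseudocount, filter or normalization, and the replicate number as a block. R was used with Python 3.11.15, numpy 2.4.6, pandas 2.3.3 and scipy 1.17.1.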

Additional observations from a re-analysis of the deposited data

Results flagged for a closer look

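PRR5 and BANP were singled out because the 2 acetyl marks moved in opposite directions there. Both were gained in H3K18ac, with the lower of the 2 NaPr folds at 3.18 in PRR5 and 2.69 in BANP and no region within 1 kb in the untreated libraries. The NaPr replicate 1 region of BANP met untreated regions beginning 1120 and 1213 bp away, and its summit was 1561 bp inside the gene. The NaPr replicate 2 region spanned the 5′ end and did not overlap that of NaPr replicate 1. With a window of 2 kb BANP was no longer gained and PRR5 had a region in 1 untreated library, and with 250 bp PRR5 had none in NaPr. In H4K12ac they had a region in both untreated libraries, with folds of 2.58 and 2.82 in PRR5 and 3.45 and 4.23 in BANP, and none in either NaPr library. They were chosen for this pattern, and the difference between marks was not tested. Of the 83 gained genes, 8 lost H4K12ac (9.64%), beside 24.1% of all genes. These shares include genes without the mark and do not compare how often it was lost where present. H4K12ac was in both untreated libraries at 18 of the 83 gained genes, of which 8 lost it. It was in both at 11903 of all genes, of which 4830 lost it.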

How the results depend on the processing

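Keeping the 76888 strongest regions of each library gave 35 genes gained and 413 lost at the 5′ end and 5 gained in the body. A window of 250 bp gave 46 gained and 552 lost. Requiring the summit in the window gave 148 gained, and leaving out regions over input peaks gave 481 gained. Leaving out 1 library gave 147 to 567 gained and 419 to 2315 lost at the 5′ end, and 30 to 2236 gained and 277 to 1678 lost in the body. Leaving out NaPr replicate 1 with equal numbers of regions, chosen after seeing the data, gave 354 gained and 2494 lost at the 5′ end and 72 gained and 1424 lost in the body. A gap of 5 points gave 39 and 564 bodies, and one of 20 points gave 3 and 50. Limma called 0 to 220 genes higher and 0 to 206 lower at the 5′ end when 1 library was left out, and 0 in both directions for bodies. With the replicate number as a block it called 3 bodies higher and 54 lower, and 0 in both directions for folds at the 5′ end. Same-numbered libraries deviated together with a correlation of 0.135 over bodies and 0.0283 over folds, and the labels give the numbers no shared origin. The share difference at the 5′ end stayed negative, between -12.0 and -0.55 points, in all settings tried. Other planned settings (q under 0.05, a window of 2 kb, flanks of 1 kb, and the other pseudocount, filter and normalizations) left the adjusted counts within 1.5 times. At an unadjusted p under 0.05, body counts went from 35 higher and 215 lower to 358 and 494 with quantile normalization and to 75 and 250 with no filter, and fold counts from 410 and 402 to 935 and 381 with median centring. The cause of these changes was not tested. Depth differed most between NaPr replicate 1 and untreated replicate 1, with 38.6 and 11.2 fragments per kb. Their median region widths were 293 and 514 bp and their median folds 2.52 and 3.77. The part of depth in these values was not tested.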

Other observations

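Histone genes of the replication-dependent clusters stood among the short genes that lost body coverage, a set noticed after the values were seen and matched by symbol. Of 69 such genes, 8 were lost in the body (11.6%) and 0 were gained, beside 1.0% lost among all genes. Genes lost in the body had a median length of 4.69 kb against 27.5 kb for all genes. The 1.0% is therefore not the share among genes of like length. H2BC10 was covered over 26.6% and 0% in NaPr and 94.6% and 82.2% in untreated cells. H3C2 had 61.3% and 47.9% against 96.5% and 93.7%, and H4C2 had 76.0% and 71.1% against 100% in both untreated libraries. H4C13 had 74.7% and 0% against 100% in both. None of the 69 was gained or lost at the 5′ end, and 53 had a region there in all 4 libraries. Median coverage over the 69 genes was 74.9% in NaPr replicate 1, 14.9% in NaPr replicate 2, and 94.6% and 79.2% in untreated replicates 1 and 2. How alike the sequences of these genes are was not measured. Whether reads were assigned to the wrong gene of the set, and the part of this in the values, was not tested.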
